A study of Macaca mulatta with 7 samples.

Results

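The immediate early genes examined here are 10 transcription factor genes, FOS, FOSB, JUN, JUNB, EGR1, EGR2, EGR3, NR4A1, NR4A2 and NR4A3, taken by symbol from the gene column of the deposited matrices, where each had 1 identifier. They are 10 of 28966 genes. Their UMIs (unique molecular identifiers, which count captured RNA molecules) were measured by single-nucleus RNA-seq in 7 libraries of rhesus monkey spinal cord, 1 library per group. The cervical, thoracic and lumbar libraries came from untreated adult cord aged 5 years, and by the study's methods from 1 animal. The other libraries came from spared lumbar cord, below a complete thoracic injury in which a block of cord was cut out, at 7 and 14 days post injury (dpi, both aged 7 years), 30 dpi and 6 months post injury (mpi, both aged 6 years). By the study's methods the monkeys were female and 1 animal per group was sequenced, so a difference between libraries cannot be told apart from a difference between animals, ages or dissections, and no test between groups was possible.

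Immediate early genes are switched on within minutes of a signal reaching the cell, without new protein synthesis. Serum response factor, bound at CArG boxes, and CREB, bound at the cyclic AMP response element, are the classical routes to them, and their products then set off later waves of transcription. FOS and JUN proteins pair through leucine zippers as AP-1, EGR proteins bind GC-rich DNA through zinc fingers, and NR4A proteins are orphan nuclear receptors. In neurons these genes are widely used as a record of recent activity, and in macrophages and microglia they follow inflammatory signals. They are also known to respond to the handling of tissue. The interval between death and lysis is not given in the sources used here.

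Some stretches of promoter that carry the classical elements are shown to give the genes their context. In the 500 bases before the RefSeq gene start in Mmul_10, the same assembly as the counts, both strands were searched for the CArG box, TGACGTCA (the cyclic AMP response element), TGANTCA (the AP-1 site), GCGNGGGCG (the EGR site) and AAAGGTCA (the NR4A site). CArG boxes lay before FOS, FOSB, EGR1, EGR2 and EGR3, thus 5 of 10 members, and before 2.17% of 20782 protein-coding genes. TGACGTCA lay before FOSB and NR4A2 and before 1.79% of all genes. GCGNGGGCG was present for 3 of 10 members, FOSB, NR4A1 and NR4A2, and for 11.0% of all genes. No member held TGANTCA or AAAGGTCA in this window, which 10.5% and 2.002% of all genes held. None of these matches overlapped a match of another motif, and a match is a description of letters, not of binding. Capitals mark CArG boxes and TGACGTCA, and each line runs 5′ to 3′ on the gene's strand.
FOS, chr7:137394442-137394491, plus strand: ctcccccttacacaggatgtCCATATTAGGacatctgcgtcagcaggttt
FOSB, chr19:45527345-45527445, plus strand: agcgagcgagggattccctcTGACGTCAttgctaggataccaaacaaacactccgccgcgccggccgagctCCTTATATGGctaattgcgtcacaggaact
EGR1, chr6:135873882-135873953, plus strand: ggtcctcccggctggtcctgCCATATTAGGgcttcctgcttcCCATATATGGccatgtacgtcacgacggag
EGR2, chr9:75154027-75154076, plus strand: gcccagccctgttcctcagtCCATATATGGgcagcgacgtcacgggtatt
NR4A2, chr12:43428488-43428535, minus strand: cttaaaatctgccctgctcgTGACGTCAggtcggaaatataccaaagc
EGR1 held 4 CArG boxes in its window and EGR2 held 2, of which the ones nearest the gene are printed, and the stretch of EGR3 is not printed. JUN (chr1:165651412-165653728) and JUNB (chr19:12369848-12371689), both genes of 1 exon, and NR4A3 (chr15:43049933-43093904) held none of the 5 motifs.

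After filtering and doublet removal, 63730 of 69332 barcodes remained, with median depths of 3191 to 7355 UMIs per nucleus across libraries. The 6 mpi library was the smallest, with 5637 nuclei and the lowest depth. Pairs of libraries shared 12 to 36 barcodes. Clusters were named from marker genes, with the members and lists of related immediate early genes kept out of the variable genes. Nuclei were thus not grouped directly by the members, but PTGS2, CXCL8 and other inflammatory genes were not kept out. Naming gave 20489 microglia-like, 22366 oligodendrocyte-like, 4052 OPC-like (oligodendrocyte precursor), 4187 astrocyte-like and 9878 neuron-like nuclei in all 7 libraries. The microglia-like class was named from markers of microglia and macrophages together, which were not told apart. Levels are UMIs of a gene per 1000000 UMIs of the class in a library (CPM), and all intervals are exact and cover counting error only. Intervals of levels and ratios take UMIs as independent, so the spread between nuclei is not in them. A gene was called higher or lower in an injured library where it stood at least 2-fold from intact lumbar cord, its interval left out 1, and its level lay outside all 3 intact libraries. The call was made for every gene with a mean of at least 5 CPM in the class, so that the share of all genes called could be set beside the members.

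In which cells were the genes found? Among these 5 classes, microglia-like nuclei held the highest level of all 10 genes in each of the 3 intact libraries. The same held at 14 dpi, 30 dpi and 6 mpi. At 7 dpi microglia-like nuclei held the highest level of 7 of 10. NR4A1 was then highest in OPC-like, NR4A2 in astrocyte-like and NR4A3 in neuron-like nuclei, the last at 4.33 against 3.97 CPM. Microglia-like nuclei contributed 42.2% to 67.5% of all UMIs of the 10 genes in intact cord, 61.1% at 7 dpi, and 86.7%, 88.8% and 82.1% at 14 dpi, 30 dpi and 6 mpi. They also made up more of the nuclei, 17.9% to 22.9% in intact cord and 38.0% to 49.98% in injured cord.
In intact cord, OPC-like nuclei were next for FOS (21.3 to 40.5 CPM), JUN (11.0 to 18.0 CPM) and EGR1 (6.04 to 11.4 CPM), whereas neuron-like nuclei were next for NR4A1 (6.58 to 7.91 CPM) and NR4A3 (5.90 to 7.94 CPM). For every member the lowest microglia-like level in intact cord lay above the highest level of the next class. Further down the order the ranges overlapped for most genes, for example between OPC-like and astrocyte-like nuclei for JUN and between neuron-like and OPC-like nuclei for NR4A1.

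**Figure D1:**
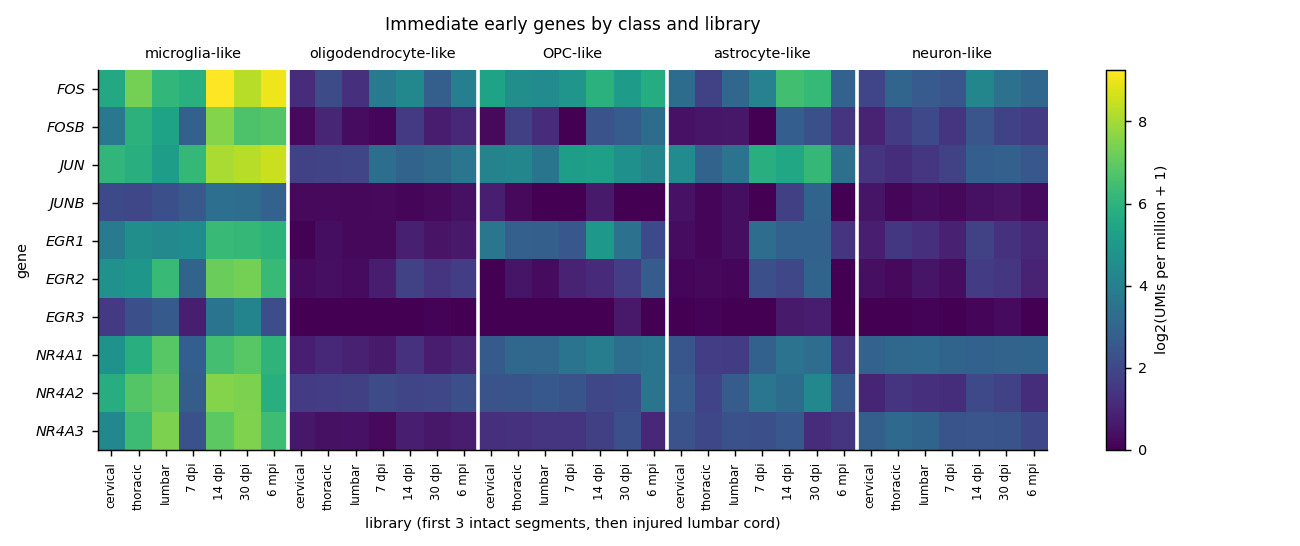
Level of each gene (rows) as log2(CPM + 1), by class and library (columns), with 1 library per column. The microglia-like block is brightest, its 7 dpi column is dark for the NR4A genes, and EGR3 is close to 0 in every other class.

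In microglia-like nuclei FOS, FOSB and JUN were called higher at 14 dpi, 30 dpi and 6 mpi and JUNB at 14 and 30 dpi, and at 7 dpi FOSB was called lower. FOS, the inducible partner of JUN, stood at 47.3, 161 and 69.6 CPM in intact cervical, thoracic and lumbar cord, at 57.8 CPM at 7 dpi, and at 613, 308 and 518 CPM at 14 dpi, 30 dpi and 6 mpi. The 3 later libraries lay above every intact one and 7 dpi lay within the intact range. Against intact lumbar cord the log2 ratio of FOS at 14 dpi was 3.14, with a 95% counting interval of 3.01 to 3.27. It was 2.15 (2.02 to 2.28) by 30 dpi and 2.90 (2.76 to 3.03) by 6 mpi.
JUN, the partner that also pairs with itself, stood at 67.6, 54.4 and 35.5 CPM in intact cervical, thoracic and lumbar cord, at 70.6 CPM at 7 dpi, and at 271, 303 and 364 CPM at the later times. Its log2 ratios of 2.93, 3.10 and 3.36 at those 3 times were the largest or next to largest of the 10 genes at each. At 7 dpi JUN lay just above the intact range and just under the 2-fold limit, and was not called.
FOSB, a close relative of FOS, stood at 12.2, 60.5 and 40.4 CPM in intact cord and at only 6.08 CPM at 7 dpi, from 95 UMIs. It was then at 187, 102 and 109 CPM. The 7 dpi library lay below all 3 intact libraries and the later ones above them, so FOSB was called lower once (log2 ratio -2.73) and higher at 3 times.
JUNB, which can hold JUN in check, had few UMIs and stood at 2.96 to 3.82 CPM in intact cord, 4.99 CPM at 7 dpi, and 9.31, 9.04 and 6.59 CPM thereafter. It was called higher at 14 and 30 dpi, from 193 and 228 UMIs, and not at 6 mpi, where 41 UMIs were counted and the log2 ratio was 0.79.

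The EGR genes were split in the same library. EGR1, an activator induced by growth factor and stress signals, stood at 12.6, 23.0 and 19.7 CPM in intact cord, at 21.4 CPM at 7 dpi, and at 76.2, 70.8 and 62.8 CPM at 14 dpi, 30 dpi and 6 mpi. It behaved like FOS, with 7 dpi inside the intact range and the 3 later libraries above it (log2 ratios 1.96, 1.85 and 1.68).
EGR2, known for its part in myelination and in macrophage activation, stood at 24.7, 29.2 and 75.6 CPM in intact cord, at 6.91 CPM at 7 dpi, and at 139, 160 and 75.7 CPM afterwards. The 7 dpi level lay below the intact libraries by a log2 ratio of -3.45 (-3.76 to -3.15) against lumbar cord. Its 6 mpi level equalled that of intact lumbar cord (log2 ratio 0.00), and at 14 dpi the ratio of 0.88 was under the 2-fold limit, so EGR2 was called higher only at 30 dpi (1.08).
EGR3, a relative that EGR1 itself can induce, was rare. It stood at 1.96, 3.77 and 5.19 CPM in intact cord, at 0.70 CPM from 11 UMIs at 7 dpi, at 10.9 CPM and 17.1 CPM at 14 and 30 dpi, and at 3.54 CPM at 6 mpi. It was called lower at 7 dpi and higher at 14 and 30 dpi.

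The 3 NR4A genes were not called higher in microglia-like nuclei of any injured library, and all 3 were called lower there at 7 dpi. NR4A1, also called NUR77 and known to restrain inflammatory programmes in macrophages, stood at 26.1, 56.5 and 115 CPM in intact cervical, thoracic and lumbar cord, at 5.88 CPM at 7 dpi, and at 88.5, 115 and 63.8 CPM at 14 dpi, 30 dpi and 6 mpi. The 7 dpi level was 19.6-fold under that of intact lumbar cord, and the 3 later levels lay inside the intact range.
NR4A2, also called NURR1, stood at 54.1, 109 and 139 CPM in intact cord, at 5.69 CPM at 7 dpi, and at 184, 171 and 56.9 CPM later. The 7 dpi level was 24.4-fold lower than in intact lumbar cord, whereas 14 and 30 dpi lay above the intact range without reaching 2-fold (log2 ratios 0.41 and 0.30).
NR4A3, also called NOR1, had the widest spread. It stood at 19.1, 81.4 and 171 CPM in intact cord, at 3.97 CPM from 62 UMIs at 7 dpi, and at 121, 178 and 82.0 CPM later. At 7 dpi it was 43.1-fold lower than in intact lumbar cord, with a log2 ratio of -5.43 (-5.82 to -5.06), and 30 dpi was the only library above the intact range, by little.

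**Figure D2:**
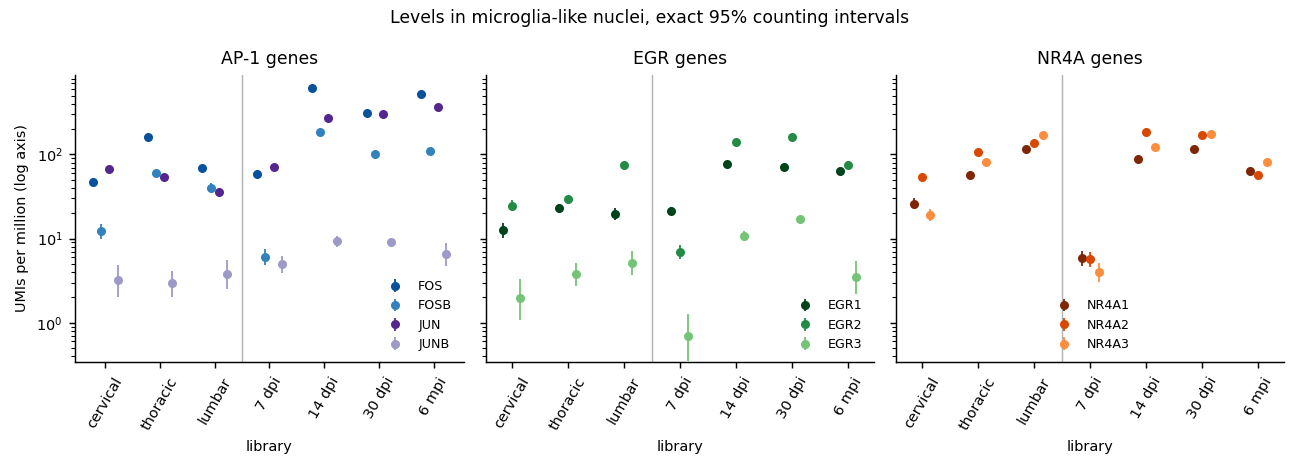
Level of each gene in microglia-like nuclei in CPM (log axis) by library, in 3 panels for the AP-1, EGR and NR4A genes. Points are libraries and bars are exact 95% counting intervals, and the grey line parts intact from injured cord. The NR4A genes stand at 3.97 to 5.88 CPM at 7 dpi, and FOS reaches 613 CPM at 14 dpi.

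All 10 genes passed the filter in microglia-like nuclei, but JUNB and EGR3, with intact means under 5 CPM, passed through the injured libraries in which they were high. Counted over the 10 genes, 0 were called higher and 6 lower at 7 dpi, against 8.27% and 5.51% of the 10323 genes measured. At 14 dpi 6 were higher (5.97% of all genes) and 0 lower (4.62%). At 30 dpi 7 were higher (8.02%) and 0 lower (6.25%). At 6 mpi 4 were higher (12.6%) and 0 lower (4.71%), but 2 higher and 1 lower without the limit on a second class that was set after the clusters were seen. In nuclei with at least 2000 UMIs, 1 member was called higher at 7 dpi in place of 0, and 5 at 14 dpi in place of 6. The median log2 ratio of the 10 genes, on log2(CPM + 1), was -2.20, 1.02, 1.19 and 0.33 at the 4 times, and over all genes it was 0.05, -0.08, -0.05 and 0.18.
The intact segments also differed among themselves. Relative to lumbar cord, 6 of 10 members stood at least 2-fold lower in cervical cord with an interval that left out 1, where 0.407% of all genes did, and 0 stood higher (1.76%). In thoracic cord 3 were lower (1.39%) and 1, FOS, was higher (1.11%). The highest intact level of NR4A3 was thus 171 CPM and the lowest 19.1 CPM, and the choice of lumbar cord as the reference sets the size of every NR4A ratio. With the 3 intact libraries averaged as the reference, the members had a median log2 ratio of 1.51 at 14 dpi in place of 1.02, with 7 called higher in place of 6, of 1.57 at 30 dpi in place of 1.19, and of 0.80 at 6 mpi in place of 0.33. NR4A1 and NR4A3 at 14 dpi changed sign with it, from -0.38 and -0.49 to 0.42 and 0.42 on log2(CPM + 1).

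**Figure D3:**
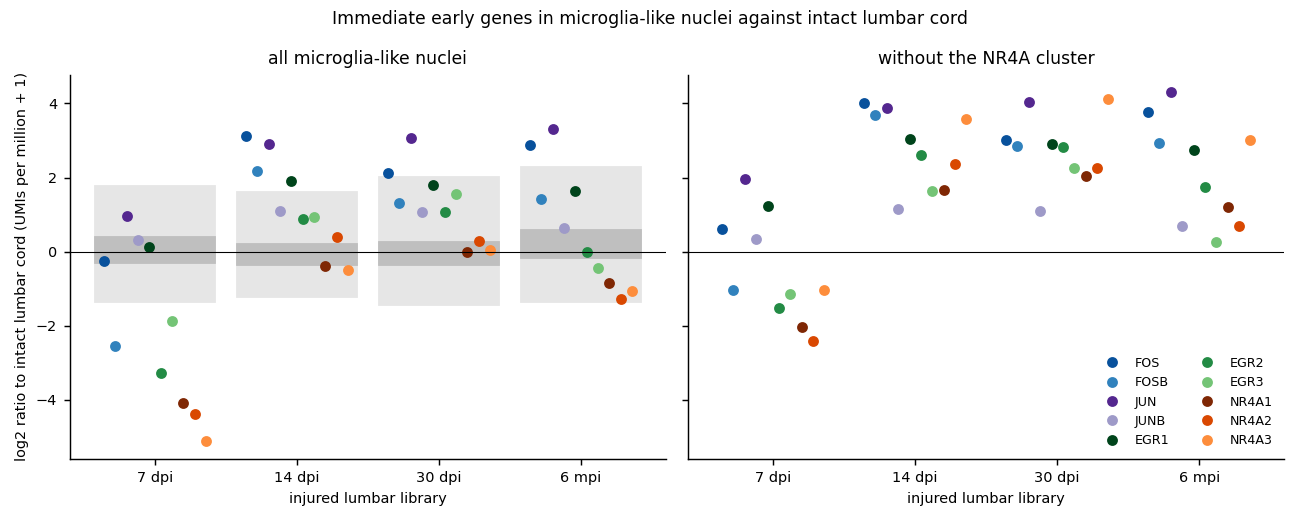
Log2 ratio of each gene to intact lumbar cord in microglia-like nuclei, on log2(CPM + 1), at 4 times. Left, all nuclei, with light and dark grey boxes for the central 95% and 50% of all genes measured. Right, the same without the cluster of nuclei richest in NR4A UMIs, where the median of the 10 genes is -1.03, 2.82, 2.83 and 2.25.

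Much of the intact level came from a small set of nuclei. Among the 8 microglia-like clusters, 1 cluster of 400 nuclei held 232 from intact lumbar, 109 from intact thoracic and 57 from intact cervical cord, and 0, 1, 1 and 0 from the injured libraries in order of time. Its leading genes included NR4A3, CD163, NR4A2, CXCL8, NR4A1 and IL1B, and it was singled out for its NR4A level, so its levels are a description. It stood at 1245 CPM for NR4A3, 1045 CPM for NR4A2, 714 CPM for NR4A1, 405 CPM for EGR2 and 356 CPM for FOSB. In intact lumbar cord it was 11.1% of microglia-like nuclei and held 95.2% of NR4A3, 77.9% of NR4A2, 79.1% of NR4A1, 74.4% of EGR2 and 52.5% of FOS UMIs. In intact cervical cord it was 3.45% of them and held 77.2% of NR4A3 and 15.4% of FOS UMIs.
Without this cluster, NR4A3 stood at 4.54, 12.6 and 9.24 CPM in the 3 intact libraries, at 3.97 CPM at 7 dpi and at 121, 178 and 82.0 CPM afterwards. NR4A3 was still called lower at 7 dpi on this basis. Leaving these nuclei out lowers the intact NR4A levels by construction, and 10, 10 and 7 of the 10 genes were then called higher at 14 dpi, 30 dpi and 6 mpi, with 2 higher and 6 lower at 7 dpi. The shares of all genes called on this basis are not given here, so these counts have nothing to be set against. In all, 53 combinations of gene, class and time were called higher, which included all 41 called before, and the same 7 were called lower. This set of nuclei was chosen after the data were seen, and the other microglia-like clusters each drew mainly on intact cord or on 1 injured library. The cluster led by SRGN and TNF drew 4072 of 4415 nuclei from 14 dpi, that led by SLC11A1 and CD74 drew 2943 of 4092 from 7 dpi, that with CCL4L1 and PMAIP1 among its leading genes drew 2178 of 2310 from 30 dpi, and that led by GPNMB and CHIT1 drew 1191 of 1231 from 6 mpi.

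The share of nuclei with UMIs of these genes moved along with the levels. Each nucleus was thinned at random to 1000 UMIs to set libraries of different depth on the same footing, and no nucleus had fewer. At least 1 of the 10 genes was then seen in 15.7%, 18.5% and 17.5% of microglia-like nuclei in intact cervical, thoracic and lumbar cord, in 13.3% (95% interval 12.2% to 14.4%) at 7 dpi, and in 68.0% (66.6% to 69.3%), 58.9% (57.3% to 60.4%) and 45.3% (43.3% to 47.4%) at 14 dpi, 30 dpi and 6 mpi. Without thinning, these shares were 31.4%, 31.4%, 25.05%, 32.0%, 88.1%, 85.5% and 59.4%, at median depths of 2393.5 to 5811 UMIs. In oligodendrocyte-like nuclei, with median depths of 3518 to 8653 UMIs, the thinned share was 0.684% to 1.26% in intact cord and 2.42% to 4.18% in injured cord.
At least 3 of the genes together were seen in 0.909%, 4.08% and 6.43% of microglia-like nuclei in intact cord, in 0.375% at 7 dpi, and in 15.2%, 14.99% and 9.17% thereafter. The tenth of nuclei richest in these genes held 77.3% to 86.1% of their thinned UMIs in intact cord and 82.2% at 7 dpi, but 34.1%, 40.8% and 52.3% at the 3 later times. These shares depend on how many nuclei held any such UMI, and do not measure concentration apart from it. For FOS alone the thinned share was 3.52% to 9.64% in intact cord, 4.70% at 7 dpi, and 40.0%, 21.6% and 23.6% later.

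**Figure D4:**
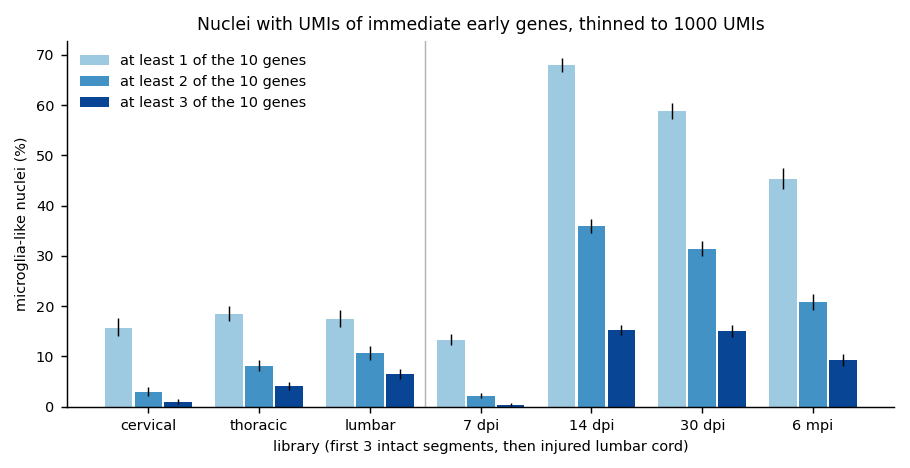
Percent of microglia-like nuclei with UMIs of at least 1, 2 or 3 of the 10 genes after thinning each nucleus to 1000 UMIs, by library, with exact 95% counting intervals. The bars for at least 1 gene stand at 13.3% to 18.5% in the first 4 libraries and at 45.3% to 68.0% in the last 3.

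Microglia-like nuclei with UMIs of at least 2 members had more UMIs of 5 of the 7 inflammatory genes than nuclei with no member UMI, where nuclei with exactly 1 member were in neither set. CCL3, a chemokine, stood at 708, 583 and 579 CPM with at least 2 members and at 89.9, 47.2 and 20.9 CPM with none in intact cord, at 151 against 22.6 CPM at 7 dpi, and at 447 against 193, 851 against 259 and 1950 against 360 CPM later. TNF, IL1B, CXCL8 and PTGS2 were likewise higher in nuclei with at least 2 members in all 7 libraries. At 7 dpi this rested on 2 against 2 thinned UMIs for PTGS2 and 7 against 4 for CXCL8. At 6 mpi IL1B stood at 66.7 CPM (45.6 to 94.1) against 42.7 CPM (32.1 to 55.7), with overlapping intervals. SOD2 and ICAM1 had no such order: SOD2 stood at 27.3 against 78.3 CPM at 30 dpi and at 95.8 against 34.8 CPM at 6 mpi, and ICAM1 at 23.2 against 24.6 CPM and at 29.2 against 17.4 CPM. CX3CR1, the fractalkine receptor of resting microglia, was lower in those nuclei in the 3 intact libraries, at 7 dpi and at 6 mpi, and slightly higher at 14 dpi (336 against 301 CPM) and 30 dpi (200 against 171 CPM). SALL1, another resting gene, was likewise higher in those nuclei in 2 of 7 libraries, intact thoracic cord and 30 dpi. P2RY12 was higher there in 3 of 7 libraries and CSF1R in 3. These are values within a library over nuclei that share it, with no test. The sets were not divided by cluster, and the NR4A-rich cluster of intact cord had CXCL8 and IL1B among its leading genes. TMEM119 had 0 UMIs throughout.

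Other genes of the same response were counted whole, as lists. Of 7 other AP-1 subunits, 5 passed the filter in microglia-like nuclei, and 1 was higher and 2 lower at 7 dpi, 3 and 0 at 14 dpi, 4 and 1 at 30 dpi, and 3 and 0 at 6 mpi. These and the following counts stand beside the shares of all genes given above, 8.27%, 5.97%, 8.02% and 12.6% higher and 5.51%, 4.62%, 6.25% and 4.71% lower at the 4 times. JUND, a subunit present without stimulation in most cells, stood at 20.8 to 25.2 CPM in intact cord, at 25.5 CPM at 7 dpi and at 86.3, 54.5 and 82.0 CPM later. BATF, an AP-1 factor of immune cells, was higher at all 4 times (log2 ratios 1.56, 1.90, 1.71 and 2.37), but passed the filter through the injured libraries, since it stood under 5 CPM in all intact ones. ATF3, a stress-induced factor, was lower at 7 dpi (-1.59) and higher at 30 dpi (1.22) and 6 mpi (2.66). BATF3 was lower at 7 dpi (-1.18) and 30 dpi (-1.20). MAFF was higher at 14 dpi (1.08) and 30 dpi (1.98), where its ratio was the largest of the 5.
Of 12 other immediate early genes, chiefly of transcription factors, 11 were found and 6 passed the filter. At 7 dpi 1 was higher and 2 were lower, and 4, 2 and 3 were higher and 0 lower later. KLF6, a zinc finger factor of injury responses, was higher at all 4 times, at 58.6 to 62.7 CPM in intact cord and 159, 211, 223 and 232 CPM in injured cord, and so it was already high at 7 dpi, when the NR4A genes were low. KLF4, its relative, was lower at 7 dpi (log2 ratio -1.62) and higher thereafter (1.53, 1.53 and 2.95), and it too was under 5 CPM in all intact libraries and passed the filter through injured ones. IER3, a survival factor, was lower at 7 dpi (-1.23) and was not called later.
Of 13 feedback regulators, 9 passed the filter, with 0 higher and 2 lower at 7 dpi, 4 and 1 at 14 dpi, and 2 and 0 at both later times. DUSP1, the phosphatase that switches off the kinases upstream of these genes, stood at 73.6 to 89.0 CPM in intact cord, at 26.2 CPM at 7 dpi and at 307, 232 and 381 CPM later. It was called lower at 7 dpi and higher at the other 3 times. ZFP36, which degrades AU-rich mRNAs, stood at 214 to 311 CPM in intact cord and was higher at the same 3 times, at 602, 440 and 710 CPM. PER1, a clock gene, was lower at 7 and 14 dpi (-1.29 and -1.03).
Of the 13 upstream factors, 11 passed and 0 were called at any time. MEF2A had the lowest ratio at each time, down to -0.93 at 6 mpi. Of 10 heat shock genes, which mark stress of the tissue or of its handling, 8 were found, 7 passed and 1 was called, HSPH1, lower at 7 dpi. Their summed level was 277 to 296 CPM in intact cord, 216, 232 and 208 CPM at 7, 14 and 30 dpi and 296 CPM at 6 mpi, and its part in the members' levels was not tested. Of 9 inflammatory genes of microglia, 7 were found and passed. Here 1 was higher and 4 were lower at 7 dpi, 3 and 2 at 14 dpi, 5 and 0 at 30 dpi, and 3 and 2 at 6 mpi. ICAM1, an adhesion molecule counted as higher each time, passed the filter through the injured libraries, since it stood under 5 CPM in all intact ones. PTGS2, an enzyme of prostaglandin synthesis that is itself an immediate early gene, and CXCL8 had the lowest ratios at 7 dpi (-4.77 and -4.00), beside the NR4A genes. TNF was highest at 14 dpi (2.84) and lower at 6 mpi (-1.10), when IL1B had the smallest ratio (-2.20) and CCL3 the largest (3.20). Of the 5 resting microglia genes, 4 passed and 0 were higher, and CX3CR1 and CSF1R were lower at 30 dpi and 6 mpi, and P2RY12 at 6 mpi (log2 ratio -1.08). The 6 markers that named the class summed to 5058 to 5469 CPM in intact cord and to 4901, 4617, 3665 and 2862 CPM in injured cord, and their part in the members' levels was not tested.

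Oligodendrocyte-like nuclei, the myelin-forming cells, were low in these genes but FOS and JUN were called higher there at all 4 times, including 7 dpi. FOS stood at 1.27, 3.36 and 1.41 CPM in intact cervical, thoracic and lumbar cord and at 13.3, 19.0, 6.00 and 14.9 CPM at 7 dpi, 14 dpi, 30 dpi and 6 mpi. JUN stood at 2.55, 2.69 and 2.83 CPM in intact cord and at 9.10, 6.78, 8.30 and 11.5 CPM in injured cord. No injured library overlapped the intact ones for either gene. These 2 were the only members that passed the filter, and they passed through the injured libraries, since both stood under 5 CPM in all intact ones. Thus 2 of 10 were higher at each time, against 5.49%, 2.26%, 2.72% and 5.79% of all genes, and 0 lower (2.14%, 2.46%, 2.06% and 2.26%). In this class 0.673% of genes were higher at all 4 times.
RNA of other nuclei was checked with microglia markers. In oligodendrocyte-like nuclei without a UMI of CSF1R, C1QA, C1QB, APBB1IP or P2RY12, which were 83.3% to 95.5% of the class, FOS stood at 0.991, 2.10 and 1.40 CPM in intact cord and at 13.4, 16.8, 5.55 and 12.3 CPM in injured cord. Both genes were still called at all 4 times there. At 7 dpi the oligodendrocyte-like FOS level was 23.0% of the microglia-like one, where the median of the 6 microglia markers stood at 2.36% of its microglia-like level. At 14 dpi, 30 dpi and 6 mpi FOS was at 3.10%, 1.95% and 2.88%, where the marker median was 2.39%, 1.88% and 2.11%. JUN was at 12.9% at 7 dpi and then at 2.51%, 2.74% and 3.15%. Most nuclei of the class had no marker UMI, so nuclei without one cannot show whether microglial RNA is absent. The part of microglial RNA in the FOS and JUN levels was not tested. The highest of the markers stood at 56.2% or more of its microglia-like level in every library. Oligodendrocyte-like nuclei of intact and of injured cord fell mostly in different clusters.

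In OPC-like nuclei, 4 of the 10 genes passed the filter, and 1, 3, 1 and 1 members were called higher at the 4 times (7.06%, 2.96%, 4.72% and 8.09% of all genes) and 0 lower (2.34%, 3.22%, 2.52% and 2.22%). FOS stood at 40.5, 23.0 and 21.3 CPM in intact cord and at 27.6, 58.7, 32.6 and 52.5 CPM in injured cord, so that only 14 dpi and 6 mpi lay above the intact range. JUN stood at 16.6, 18.0 and 11.0 CPM in intact cord and at 35.3, 36.2, 24.2 and 17.5 CPM in injured cord, and was called at 7, 14 and 30 dpi. Against the mean of intact cord no member was called at 30 dpi or 6 mpi in this class, and in nuclei with at least 2000 UMIs none was called at 7 dpi. EGR1 reached 29.6 CPM at 14 dpi, from 50 UMIs, against 6.04 to 11.4 CPM in intact cord. NR4A1 stood at 5.23, 7.68 and 7.29 CPM in intact cord and at 10.8, 14.2, 9.23 and 10.9 CPM in injured cord, above the intact range each time but under 2-fold from lumbar cord. Of the genes that passed the filter, 45.4%, 32.0%, 33.6% and 45.2% lay above their intact range at the 4 times. The share that lay above it each time is not given here. Markers of other cells also differed between libraries in this class. Summed microglia markers were 86.0, 102 and 42.9 CPM in intact cervical, thoracic and lumbar cord and 85.7, 70.5, 93.1 and 111 CPM in injured cord. Oligodendrocyte markers were 1236, 1075 and 271 CPM in intact cord and 367, 257, 1614 and 897 CPM in injured cord, and astrocyte markers were 805 to 862 CPM in intact cord and 1427 CPM at 7 dpi. In OPC-like nuclei without a microglia marker UMI 1, 4, 1 and 1 members were called higher. The part of RNA from other cells in the members' levels was not tested.

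Astrocyte-like nuclei were few after injury, 98, 251, 147 and 115 nuclei at the 4 times, and intervals were wide. Summed oligodendrocyte markers in this class were 671, 2917 and 316 CPM in intact cervical, thoracic and lumbar cord and 798, 351, 1279 and 1456 CPM in injured cord. Summed microglia markers were 28.9, 96.8 and 17.2 CPM in intact cord and 129, 67.7, 139 and 57.9 CPM in injured cord. The part of RNA from either in the members' levels was not tested. FOS stood at 8.67, 2.47 and 7.26 CPM in intact cord and at 16.4, 86.9, 73.5 and 6.44 CPM in injured cord. The log2 ratios at 14 and 30 dpi were 3.58 (3.13 to 4.05) and 3.34 (2.87 to 3.82), and 6 mpi, with 4 UMIs, lay within the intact range. JUN stood at 20.9, 6.65 and 10.4 CPM in intact cord and at 56.8, 44.3, 71.6 and 9.65 CPM in injured cord, and like FOS it lay above the intact range at 7, 14 and 30 dpi. Of the 10 genes 4 passed the filter, and 2, 3, 4 and 0 members were called higher (12.7%, 4.79%, 6.32% and 9.4% of all genes) and 0 lower (4.35%, 2.44%, 3.76% and 3.64%). With nuclei weighted equally 1, 2, 2 and 0 were higher, and with at least 2000 UMIs 2, 2, 2 and 0. With clusters at resolution 0.5, 2 members were called higher at 6 mpi in place of 0.
NR4A1 stood at 4.57, 2.20 and 2.17 CPM in intact cord and at 6.31, 10.5, 8.80 and 1.61 CPM in injured cord, and was called at 14 and 30 dpi, from 18 and 14 UMIs, having passed the filter through the injured libraries. NR4A2 stood at 5.27, 2.68 and 5.48 CPM in intact cord and at 11.4, 8.75, 18.9 and 4.83 CPM in injured cord, and was called at 30 dpi, having likewise passed the filter through the injured libraries.
In astrocyte-like nuclei without a microglia marker UMI, FOS was 96.9 CPM at 14 dpi and 77.6 CPM at 30 dpi, as high as in the whole class. At 30 dpi NR4A2 stood at 3.37 CPM, from 4 UMIs, in those nuclei. NR4A1 stood at 6.69 CPM at 14 dpi and 2.53 CPM at 30 dpi there, from 8 and 3 UMIs, and its mean over the 7 libraries was then under the filter. Neither NR4A gene was called at 14 or 30 dpi in those nuclei.

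**Figure D5:**
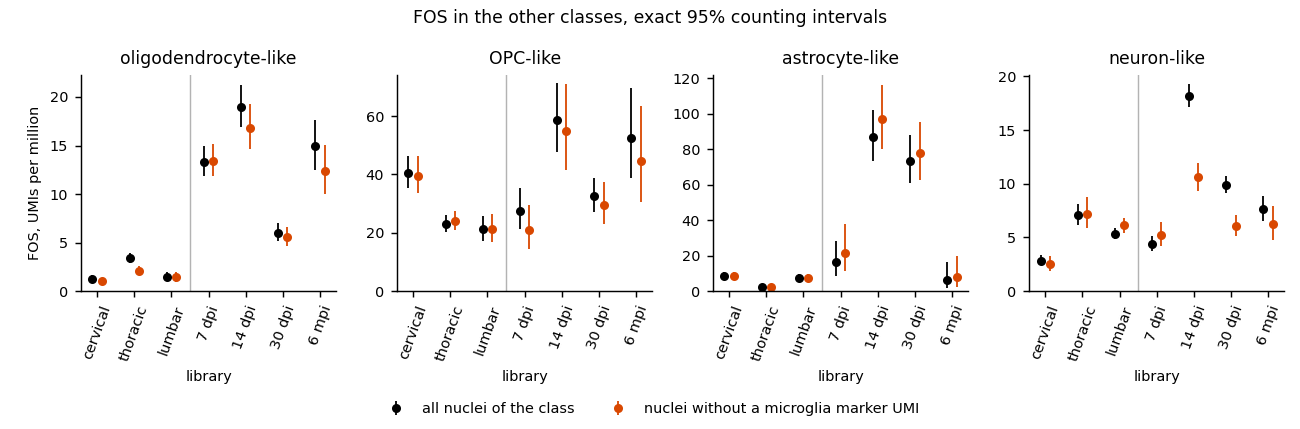
FOS in CPM by library in 4 classes, in all nuclei (black) and in nuclei without a UMI of 5 microglia markers (orange), with exact 95% counting intervals and a separate axis from 0 for each class. At 14 dpi the levels of the 2 sets are 19.0 and 16.8 in oligodendrocyte-like, 86.9 and 96.9 in astrocyte-like, and 18.2 and 10.6 in neuron-like nuclei.

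Neuron-like nuclei, in which these genes are used as markers of activity, had low levels of most members, and 3 of 10 passed the filter. FOS stood at 2.83, 7.11 and 5.36 CPM in intact cervical, thoracic and lumbar cord and at 4.39, 18.2, 9.90 and 7.66 CPM in injured cord. Only 14 dpi was called higher, with a log2 ratio of 1.76 (1.61 to 1.92). This was 1 of 10 higher at 14 dpi against 0.835% of all genes, with 0 at 7 dpi (1.16%), 30 dpi (0.782%) and 6 mpi (1.9%). At 6 mpi 1 of 10 was lower, NR4A3 (0.862%), and 0 were lower at 7, 14 and 30 dpi (0.791%, 0.915% and 0.808%). NR4A3 passed the filter through the intact libraries, since it stood under 5 CPM in all injured ones. Without the filter on low values, 4, 3 and 2 members were called higher at 14 dpi, 30 dpi and 6 mpi. Apart from FOS at 14 dpi, these members had means under 5 CPM. The share of all genes called without the filter is not given here. EGR2, under the filter, stood at 0.172 to 0.427 CPM in intact cord and at 0.241, 2.04, 1.79 and 0.903 CPM in injured cord. At 14 dpi 7 of 10 members lay above the intact range, of which only FOS passed the filter. NR4A1 and NR4A3, which also passed, lay below it. The share of 24.8% above the range is over genes that passed, so it covers an unlike set.
Neuron-like FOS at 14 dpi was 2.97% of the microglia-like level, and the 6 microglia markers stood at a median of 2.03% and at most 5.66% of theirs. The summed microglia markers in neuron-like nuclei were 39.7 to 55.8 CPM in intact cord and 58.0 to 75.3 CPM in injured cord, highest at 14 dpi. In the 48.3% of neuron-like nuclei without a marker UMI, FOS was 10.6 CPM at 14 dpi against 2.501 to 7.18 CPM in intact cord, a difference under 2-fold from lumbar cord, and the call was lost. In those nuclei NR4A3 was called lower at 14 and 30 dpi and not at 6 mpi.
JUN, under the filter in this class, stood at 1.34 to 1.79 CPM in intact cord and at 2.54, 5.80, 6.13 and 4.69 CPM in injured cord. In microglia-like nuclei it stood at 271 and 303 CPM at 14 and 30 dpi. The part of microglial RNA in the members' levels in neuron-like nuclei, JUN and EGR2 included, was not tested. NR4A1 varied least of the 3 genes that passed the filter, at 6.58 to 7.91 CPM in intact cord and 6.37 to 7.01 CPM in injured cord. NR4A3 stood at 5.90, 7.94 and 6.82 CPM in intact cord and lay below that range in all 4 injured libraries, at 4.33, 4.40, 4.33 and 3.01 CPM. Of the genes that passed the filter, 34.6%, 43.2%, 40.7% and 33.3% lay below their intact range at the 4 times. The share that lay below it in all 4 libraries is not given here.
Of 11 genes that act downstream of neuronal activity, 7 passed the filter, and 0 were higher or lower at any time. Of all genes, 0.782% to 1.9% were higher and 0.791% to 0.915% lower, so 0 of 7 does not set these genes apart. HOMER1, a postsynaptic scaffold, stood at 178 to 190 CPM and BDNF, a neurotrophin, at 18.9 to 24.9 CPM over the 7 libraries. NPAS4, an activity-dependent factor largely specific to neurons, was at 0.685 to 3.23 CPM.
Neuron-like nuclei with UMIs of SLC17A6 and of no inhibitory marker were compared with those with GAD1, GAD2, SLC32A1 or SLC6A5 and no SLC17A6. FOSB was higher in the excitatory set in 4 of 7 libraries by its counting interval and in the inhibitory set in 0. NR4A3 was higher in the excitatory set in 3 of 7 and NR4A1 in the inhibitory set in 3 of 7, with 0 the other way for each. NR4A2 was higher in the inhibitory set in 5 of 7 and in the excitatory set in 1. In intact cord the log2 ratio of excitatory over inhibitory for NR4A2 was 1.83 in cervical and -2.25 in thoracic cord. FOSB and NR4A2 did not pass the filter in neuron-like nuclei as a whole. The share of all genes that differed between the sets in this way is not given here, so these counts do not set the members apart. FOS differed in 3 of 7 libraries, 2 towards the excitatory and 1 towards the inhibitory set, and at 14 dpi it stood at 17.3 and 16.6 CPM in them.

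The 10 genes resembled each other over the 35 pairs of class and library, with Pearson correlations of log2(CPM + 1) from 0.62 (JUN with NR4A3) to 0.94 (EGR2 with EGR3). Points of a class share its cells and points of a library share its depth, so these values describe mainly that microglia-like nuclei were high. Among 13700 genes, those most like the mean of the AP-1 genes were BTG2, an antiproliferative factor (0.94), a gene known only as ENSMMUG00000061756 (0.93) and EGR2 (0.92). Most like the EGR mean were BTG2 (0.95), PMAIP1 (0.95) and ENSMMUG00000055438 (0.94), and most like the NR4A mean were EGR3 (0.93), PTGS2 (0.92) and CD83 (0.92).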

How the data were processed

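Per the submitters' processing notes and the study's methods, the authors sequenced nuclei on the 10x platform, aligned reads with Cell Ranger 6.0.0 to Mmul_10 and deposited 7 matrices of raw UMI counts per gene and barcode, with 45079131 to 150987900 UMIs per library. Identifiers of the same symbol were summed, and 959 identifiers without a symbol were looked up by identifier. Nuclei with more than 500 genes, more than 1000 UMIs, under 10% mitochondrial and under 5% haemoglobin UMIs were kept (67084 of 69332), and the 5% with the highest simulated-doublet score in each library were removed (3354 nuclei). Counts were log-normalized to 10000 per nucleus and clustered without integration (2000 variable genes, 30 components, 20 neighbours, Leiden resolution 1), using Python 3.11.15, scanpy 1.11.5 and leidenalg 0.10.2. Clusters were called "-like" from summed marker levels, and left unnamed with under 3 markers detected, with leading genes of another class, or with markers of 2 classes. For the last rule the score of the second class, on a scale of 0 to 1, had to pass 0.3, a limit set after the clusters were seen.
Counts were pooled by class and library and expressed as CPM, whose intervals are exact Poisson. Against intact lumbar cord, ratios carry exact conditional binomial intervals, and log2 medians use a pseudocount of 1 CPM. The calling code was tested on simulated data. With 1 library per group no p-value was computed. All 10 genes are named in each class where they pass the filter, genes of other lists are named from among those with the largest and smallest ratios at some time, not all of which are printed, and HOMER1, NPAS4 and other genes outside this rule were chosen after their values were seen. The members and lists were chosen with earlier results of these data known. The alternatives tried are given in the closing section.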

Additional observations from a re-analysis of the deposited data

How the results depend on the processing

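No paired analysis was possible because each group had a single library, numbered 1. Over 10 genes, 5 classes and 4 times, 41 combinations were called higher and 7 lower, and between 36 and 41 of the 41 were called again under each alternative. Of the ratios that were called, 1 changed sign under an alternative: NR4A2 in astrocyte-like nuclei at 30 dpi went to -0.59 on log2(CPM + 1) in nuclei without a microglia marker UMI. Without the filter on low values, 8, 25, 24 and 13 combinations were called higher at 7 dpi, 14 dpi, 30 dpi and 6 mpi, against 5, 15, 14 and 7. The shares of all genes given above belong to the main setting, and none is given for an alternative. The 1 combination called lower at 6 mpi became 0 with nuclei weighted equally, 2 after centring on the median gene, 2 without the limit on the second class and 0 in nuclei without a marker UMI, where 1 was called lower at 14 dpi and 1 at 30 dpi. With the 3 intact libraries averaged as the reference, the members' median log2 ratio was 0.71 in neuron-like nuclei at 14 dpi, and 1.51, 1.57 and 0.80 in microglia-like nuclei at 14 dpi, 30 dpi and 6 mpi. Without the limit on the second class the microglia-like median at 6 mpi was -0.15 instead of 0.33, with 2 members called higher there instead of 4. In neuron-like nuclei without a marker UMI it was 0.04 at 14 dpi and -0.03 at 30 dpi. Without the NR4A-rich cluster the microglia-like medians were -1.03, 2.82, 2.83 and 2.25, and uncalled ratios below 0 turned positive, such as NR4A3 at 6 mpi (-1.05 to 3.02). The limit on the second class, the marker nuclei and this cluster were alternatives chosen after seeing the data. Without thinning, the shares of microglia-like nuclei with a member were 31.4%, 31.4%, 25.05%, 32.0%, 88.1%, 85.5% and 59.4% in the order of the libraries. The causes of these shifts were not tested. Astrocyte-like values of injured libraries rest on 98 to 251 nuclei. Intervals cover counting error only, and 1 animal per group leaves the spread between animals unknown.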

Other observations

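Ependymal-like nuclei, which line the central canal, reached 50 nuclei only in the intact libraries, with 63, 109 and 319 in cervical, thoracic and lumbar cord. NR4A3 stood at 146, 245 and 276 CPM there, above the microglia-like level of the same library each time (19.1, 81.4 and 171 CPM). NR4A1 stood at 48.1, 34.7 and 53.2 CPM and FOS at 10.5, 118 and 83.4 CPM, the cervical FOS value from 5 UMIs. NR4A1 in cervical and FOS in lumbar cord also lay above the microglia-like levels there, 26.1 and 69.6 CPM. In the other intact libraries these genes lay below the microglia-like level. EGR2 had 1 UMI in cervical cord and 0 in the other 2 libraries, and EGR3 had 0 in all 3.

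T cell-like nuclei numbered 159 in intact thoracic cord and 99, 139 and 106 at 7, 14 and 30 dpi. FOS stood at 23.3 CPM in intact thoracic cord, and at 54.8, 320 and 81.8 CPM at the 3 times, from 14, 14, 130 and 48 UMIs. As in microglia-like nuclei, 14 dpi was the highest library for FOS. NR4A3 had 0 UMIs in intact thoracic cord and at 7 dpi, 7 at 14 dpi and 42 at 30 dpi. The part of RNA from other nuclei in these values was not tested.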
